A study of Mus musculus with 10 samples.

Results

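Reads of 15 to 19 nt are the shortest that these small RNA libraries hold, and they were taken as every distinct sequence of that length with its read count. There were 1053737 of them among 1575916 distinct sequences of all lengths, or 66.9%, and they carried 54.5% of all reads. The 10 libraries came from Day 6 embryoid bodies grown from male (XY) mouse embryonic stem cell lines, with 2 replicates in each of 5 groups. E14 (129/Ola, no reporter) and BG5 (C57BL/6J/DBA/129, Blimp1-GFP) each gave mouse primordial germ cell-like cells (mPGCLC) and the surrounding non-PGCLC cells of the embryoid body. SGET (B6CBA/129, Stella-GFP and Esg1-tdTomato) gave non-PGCLC cells alone. By the study's methods, E14 mPGCLC were sorted as Ssea1 and Cd61 positive and BG5 mPGCLC as Ssea1 and Blimp1-GFP positive, whereas the labels give 1 reporter gate for every sample. Each line is a single cell line, and nothing says that the 2 replicates of a group came from separate cultures, so the p-values measure only the spread between these libraries.

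As background, a microRNA (miRNA) is cut to a narrow length by Dicer and held by an Argonaute protein, and reads shorter than that length come mostly from the breakdown of longer RNAs such as tRNA, rRNA, snRNA and snoRNA. A mature tRNA ends in the letters CCA, which an enzyme adds after transcription. Box C/D snoRNAs guide the methylation of rRNA and carry a short box C element near their 5′ end, and box H/ACA snoRNAs guide the formation of pseudouridine. The miR-290 cluster is expressed in pluripotent cells and early germ cells, and let-7 in differentiated cells.

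The 12 most abundant families of these short reads are printed first because the comparisons between cell types turn on them. A family held every sequence of 15 to 19 nt that shared 12 or more contiguous bases with its leading sequence, and leaders were ranked by mean RPM (reads for each 1000000 reads of the library) over the 10 libraries. Capitals mark a CCA at the 3′ end.
F1: gacgaggtggccgag
F2: atcccacttctgacaCCA
F3: ggcggcgggcgcgggg
F4: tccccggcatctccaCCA
F5: gcccggctagctcag
F6: atcccactcctgacaCCA
F7: gtagtcgtggccgag
F8: tccccggcacctccaCCA
F9: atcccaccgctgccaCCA
F10: gcccggatagctcag
F11: tctcgctggggcctCCA
F12: cgactcttagcggtgga

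Of these leaders, 6 ended in CCA, 5 were 18 nt long and 4 were 15 nt long. The 4 leaders of 15 nt fell into pairs of similar letters, F1 and F7 both ending in gtggccgag and F5 and F10 both running from gcccgg to tagctcag. All 12 had 20 or more reads in all 10 libraries. Only F7 matched an annotated small RNA gene exactly, n-TStga1 (chr13:23518142-23518250, GRCm38), a nuclear serine tRNA gene that the annotation lists as a miRNA, together with 2 other small RNA genes. Cytoplasmic tRNA and full-length rRNA sequences were not used here, so no match was sought in them for the other leaders. The 12 families together held 2.26% to 9.10% of the reads of 15 to 19 nt, highest in the E14 mPGCLC libraries at 9.00% and 9.10%.

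Most of the families had 1 main length. Of the reads in family F1, 95.1% were 15 nt long, and in F5, F7 and F10 this share was 88.8%, 87.7% and 77.6%. In the families of F2, F4, F6 and F8, 83.2%, 72.0%, 70.9% and 66.2% of reads were 18 nt long. In F11, 76.8% were 17 nt long. F9 was less sharp, with 57.5% at 18 nt and 35.8% at 17 nt. Families F3 and F12 had no such single length, with at most 35.2% of F3 reads and 39.8% of F12 reads at 1 length, 16 nt in both.

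Of the 12 leaders, 6 lay inside one of the 1000 most abundant sequences of 20 to 24 nt. Of those, 4 ended at the same base as a 22-nt sequence, which is printed to show the 4 bases that the short form lacked, and F1 began at the same base as a 23-nt sequence.
22-nt sequence of F2: tcgaatcccacttctgacaCCA
22-nt sequence of F4: tcgatccccggcatctccaCCA
22-nt sequence of F6: tcgaatcccactcctgacaCCA
22-nt sequence of F8: tcgatccccggcacctccaCCA
23-nt sequence of F1: gacgaggtggccgagtggttaag

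The 22-nt sequence of F4 was the most abundant of these, at 935 to 2041 RPM, against 1102 to 2319 RPM for F4 itself. For F2 the long form was at 24.04 to 171 RPM and the short form at 997 to 3287 RPM. The balance of short and long forms therefore differed between the families. The 23-nt sequence of F1 was at 13.9 to 119 RPM, and F1 at 724 to 7440 RPM.

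Each library held 7421061 to 14444567 mapped reads, of which 3815787 to 8713220 were 15 to 19 nt long. The share of all reads in this length was 46.1% and 48.8% in E14 mPGCLC replicates 1 and 2, 61.2% and 67.3% in BG5 mPGCLC, 54.7% and 59.4% in E14 non-PGCLC, 48.7% and 60.3% in BG5 non-PGCLC, and 51.2% and 42.8% in SGET non-PGCLC. The mPGCLC libraries were below the non-PGCLC libraries in E14 and above them in BG5, with differences of -9.59 and 9.75 percentage points. Across both lines the mean was 55.9% ± 10.1 (SD, n = 4) in mPGCLC and 55.8% ± 5.33 (SD, n = 4) in non-PGCLC, a difference of 0.081 points (two-sided exact permutation test over 70 arrangements, p = 0.971; Benjamini-Hochberg over 5 measures, 0.971). The smallest p that this design allows is 0.0286. By the study's methods the libraries were cut from a gel by size after PCR, and the part of this step in the share was not tested.

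Within the class the reads thinned out with length. Reads of 15 nt made up 21.3% to 26.4% of it, reads of 16 nt 21.4% to 23.2%, reads of 17 nt 21.0% to 22.9%, reads of 18 nt 17.7% to 20.8%, and reads of 19 nt 11.5% to 14.3%. In 8 of 10 libraries 15 nt was the most frequent length of the class, and in BG5 non-PGCLC replicate 1 and SGET non-PGCLC replicate 2 it was 17 nt. The mean length was 16.65 to 16.85 nt.

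The first base was spread over all 4 letters. G began 23.9% to 31.0% of the reads, A 23.4% to 28.8%, U 23.1% to 26.6% and C 19.3% to 25.8%. Among reads of 20 to 24 nt the ranges were 7.91% to 15.2% for G, 26.3% to 58.9% for A, 25.3% to 50.5% for U and 7.94% to 11.6% for C. For G and C the 2 length classes did not overlap across the libraries. At 15 nt, 5′-G reached 41.2% and 40.3% in E14 mPGCLC and was 29.2% to 34.5% in the other 8 libraries. The 5′-U share of the class was 24.3% ± 1.15 (SD, n = 4) in mPGCLC and 25.1% ± 1.14 (SD, n = 4) in non-PGCLC (exact permutation p = 0.343, adjusted 0.857).

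The 3′ base was less even. G ended 31.0% to 47.1% of the reads and A 24.4% to 37.4%, while U ended 17.9% to 20.2% and C 9.68% to 16.04%. The SGET libraries had the lowest 3′-G shares, 31.0% and 31.4%, and the highest 3′-A shares, 37.4% and 33.9%.

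G and C made up 53.9% to 59.0% of the bases of the class, and G alone 31.7% to 34.9%. The GC share was 55.9% to 60.9% at 15 nt and 50.5% to 56.0% at 19 nt, and lower at 19 nt in every library. Reads of 20 to 24 nt had 48.6% to 50.6%. In mPGCLC the class had a GC share of 56.1% ± 1.92 (SD, n = 4) and in non-PGCLC 55.8% ± 1.01 (SD, n = 4), which did not differ beyond the spread (exact permutation p = 0.771, adjusted 0.964).

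For classes of equal length and 5′ base, 0 of the 20 classes of 15 to 19 nt passed the edgeR test between the cell types, with 0 at an unadjusted p under 0.05, and DESeq2 also called 0, with 2 at an unadjusted p under 0.05. Of all 108 classes of any length, 6.48% passed by edgeR and 7.41% by DESeq2.

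Reads ending in CCA were looked at after the leading sequences had been seen, so their values are a description. They made up 6.51% to 12.9% of the class. At 18 nt the share was 12.01% to 20.9%, at 17 nt 7.998% to 16.3%, at 15 nt 3.48% to 8.60%, and at 20 nt 2.04% to 3.35%. It was at a second high at 22 nt, 6.08% to 11.7%, with 0.775% to 2.31% at 21 nt and 0.565% to 1.37% at 23 nt. The same pattern of 18 and 22 nt was present in all 10 libraries. Other endings of related letters were rarer in the class, with 0.762% to 1.62% for ACC and 0.416% to 1.11% for CAC.

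Of 18-nt reads ending in CCA, 37.8% to 60.4% were exactly the 3′ end of a 22-nt sequence that had 20 or more reads in the same library. For 18-nt reads with another ending this was 3.14% to 10.5%. Of the CCA reads with such a partner, 85.6% to 94.5% had one that began with TCGA, the letters by which the 22-nt sequences of F2, F4, F6 and F8 exceed their short forms.

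Containment in longer reads was then measured over the whole class. The 1000 most abundant sequences of 20 to 24 nt, which themselves held 58.0% to 77.2% of the reads of that length, contained 12.9% to 18.2% of the reads of 15 to 19 nt. Of the class, 3.77% to 6.36% shared the start of such a sequence, 4.38% to 6.04% shared its end and 4.12% to 6.12% lay inside. No end was favoured in all libraries. With the 100 most abundant sequences the share fell to 0.609% to 1.60%, and with the 5000 most abundant it was 28.9% to 37.3%. The value for the 1000 was 15.7% ± 2.37 (SD, n = 4) in mPGCLC and 15.3% ± 1.62 (SD, n = 4) in non-PGCLC (exact permutation p = 0.714, adjusted 0.964).

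Exact matches to GENCODE vM21 transcripts covered 9.08% to 14.97% of the reads on the sense strand. The antisense strand was matched by 7.02% to 12.1%, less than the sense strand in every library. A read can match both. Both shares were highest at 15 nt. At 15 nt they were 17.5% to 27.1% sense and 13.7% to 21.9% antisense, at 18 nt 5.38% to 8.37% and 4.24% to 7.08%, and at 19 nt 6.82% to 10.7% and 3.24% to 6.75%. In all libraries, 80.6% to 87.0% of the reads matched neither strand. The authors mapped with up to 2 mismatches and to the whole genome, and neither the origin of the unmatched reads nor whether all of them came from mouse RNA was tested.

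The sense share was 14.6% and 14.97% in E14 mPGCLC, 11.7% and 10.3% in BG5 mPGCLC, 10.8% and 12.5% in E14 non-PGCLC, 9.08% and 9.54% in BG5 non-PGCLC, and 11.4% and 12.9% in SGET non-PGCLC. The mPGCLC libraries lay above the non-PGCLC libraries within each line, by 3.11 points in E14 and 1.71 points in BG5. The difference of 2.41 points between the 4 and 4 libraries had an exact permutation p of 0.171 (adjusted 0.857). Permuting only inside a line gave an exact permutation p of 0.0556, which is the smallest value for 36 arrangements. The antisense share had the same order within each line, at 11.9%, 12.1%, 8.94% and 8.78% in mPGCLC against 8.27%, 9.60%, 7.02% and 7.66% in non-PGCLC, and its part in the sense difference was not tested.

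Annotated small RNA genes accounted for little of the class. Reads of 15 to 19 nt matched them sense at 1.07% to 2.97% and antisense at 2.30% to 3.81%. For reads of 20 to 24 nt the sense share was 47.4% to 63.4%. Of the class, miRNA genes took 0.447% to 1.24%, snoRNA genes 0.133% to 0.718%, snRNA genes 0.135% to 0.327%, rRNA genes 0.125% to 0.433%, and tRNA genes that the annotation lists as miRNA 0.0901% to 0.523%.

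Most of these sequences were seen once or in a single library. In a library 54.2% to 68.8% of the distinct sequences of the class had 1 read. Those with 20 or more reads numbered 10888 to 53231 and held 95.8% to 97.5% of the reads of the class. Just inside and outside that limit, 16 to 762 sequences of a library had exactly 20 reads and 21 to 676 had exactly 19. The 100 most abundant sequences of a library held 5.85% to 12.4% of its reads of 15 to 19 nt, against 40.5% to 63.7% of the reads of 20 to 24 nt for the 100 most abundant there.

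Over the 10 libraries, 846505 sequences never reached 20 reads and 207232 did so in at least 1 library. Of the latter, 168572 or 81.3% reached it in exactly 1 library and held 35.0% of the reads of the class. Just 756, or 0.365%, reached it in all 10 libraries, and these held 14.8% of the reads. Among sequences of 20 to 24 nt, 75.2% of those that reached 20 reads did so in 1 library and 0.963% in all 10.

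Replicates shared few of these sequences. In E14 mPGCLC, 8916 sequences had 20 or more reads in both replicates, of 41739 in replicate 1 and 37109 in replicate 2. In BG5 mPGCLC 7207 were shared, of 25192 and 53231. The shared numbers were 5950 of 22289 and 27500 in E14 non-PGCLC, 4606 of 20867 and 24495 in BG5 non-PGCLC, and 3056 of 43252 and 10888 in SGET non-PGCLC. As a share of each list this was 7.07% to 28.6%, with a median of 21.9%.

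Libraries of different groups shared 5.96% to 33.1% of a list with a median of 20.6%. As a share of its own list, 1 of the 10 libraries, BG5 mPGCLC replicate 1, shared most with its own replicate (28.6%), and the other 8 apart from BG5 mPGCLC replicate 2 shared most with that library, which had the longest list. By the mean of the shares of both lists, the replicate came first for E14 non-PGCLC replicate 1 and SGET non-PGCLC replicate 2 only. The shared sequences held 21.4% to 50.3% of a replicate's class reads, against 65.6% to 85.2% for sequences of 20 to 24 nt. Replicate counts differed by far more than sampling noise (chi-square per degree of freedom 102 to 243) and no 2 files were identical, so no pair was taken for 1 library deposited again. This check does not show that replicates came from separate cultures.

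The leading sequences were then compared between the cell types in a fit over all 65913 sequences of any length that passed the low-count filter, of which 40626 were 15 to 19 nt long. Their values come first, library by library. F1 was at 7440 and 6850 RPM in E14 mPGCLC, 4036 and 4216 in BG5 mPGCLC, 2912 and 2916 in E14 non-PGCLC, 724 and 1331 in BG5 non-PGCLC, and 3598 and 2691 in SGET non-PGCLC. All 4 mPGCLC libraries were above the 4 non-PGCLC libraries of the same lines, and above SGET. The mean was 5636 ± 1761 RPM (SD, n = 4) against 1971 ± 1117 RPM (SD, n = 4), a ratio of 2.86, and the fitted log2 change was 1.92 with a standard error of 0.16 (edgeR quasi-likelihood test, adjusted p = 8.56e-11).

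F5, which has the letters gcccggctagctcag, was at 2373 and 3050 RPM in E14 mPGCLC, 1567 and 1138 in BG5 mPGCLC, 1549 and 1543 in E14 non-PGCLC, 420 and 568 in BG5 non-PGCLC, and 865 and 671 in SGET non-PGCLC. The mPGCLC libraries were above the non-PGCLC libraries within each line but overlapped with them across lines (log2 1.38, standard error 0.22, edgeR adjusted p = 0.000397). F10 was at 1877, 2107, 817 and 526 RPM in the 4 mPGCLC libraries and 875, 520, 323 and 187 RPM in the 4 non-PGCLC libraries, separate within each line only (log2 1.68, edgeR adjusted p = 0.00268). F7, the read of the serine tRNA gene, was at 2300, 1821, 1373 and 1184 RPM against 1111, 854, 636 and 570 RPM, and these groups did not overlap (log2 1.33, edgeR adjusted p = 0.0225). All short reads of that gene together gave a log2 change of 0.90 that did not pass (edgeR adjusted p = 0.160). All 4 leaders of 15 nt were thus higher in mPGCLC by this test.

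F12 was at 518, 735, 1416 and 942 RPM in mPGCLC and 206, 175, 120 and 112 RPM in non-PGCLC of the same lines, and at 637 and 791 RPM in SGET non-PGCLC. It had the largest fitted change of the 12, 2.77 on the log2 scale with a standard error of 0.37 (edgeR adjusted p = 1.31e-05), while the SGET non-PGCLC libraries were within the range of mPGCLC. F3 was at 4019 and 5284 RPM in E14 mPGCLC, 525 and 458 in BG5 mPGCLC, 1641 and 2054 in E14 non-PGCLC, 38.7 and 257 in BG5 non-PGCLC, and 1415 and 1061 in SGET non-PGCLC (log2 1.80, edgeR adjusted p = 0.000324). Both E14 non-PGCLC libraries were above both BG5 mPGCLC libraries, so the groups of F3 overlapped across lines.

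None of the 6 leaders that end in CCA passed. Their fitted log2 changes were 0.53 for F2, 0.38 for F4, 0.60 for F6, 0.47 for F8, -0.04 for F9 and 0.95 for F11 (edgeR adjusted p = 0.457 or higher). F4 was at 1643, 1611, 1456 and 1524 RPM in mPGCLC and 1230, 1102, 2206 and 1265 RPM in non-PGCLC. F2 was at 2116, 1776, 2363 and 1800 RPM in mPGCLC and 1419, 1069, 3287 and 997 RPM in non-PGCLC. In both, BG5 non-PGCLC replicate 1 was the highest of these 8 libraries. Without it, F2 passed with a log2 change of 1.14 (edgeR adjusted p = 1.42e-10), as did F6 (1.17, 4.41e-06), F11 (1.08, 0.0427) and F4 (0.66, 0.0328). Leaving out either SGET library also let F2, F6 and F11 pass, at 0.53 to 0.95. The median fitted change over all 65913 sequences was 0.69 on the log2 scale, and 0.50 when counts were scaled by total reads. By the main scaling it was 0.16 within E14 and 0 within BG5. Within E14, F2, F4, F6, F8, F9 and F11 were at 1.09, 0.91, 1.16, 0.63, 0.46 and 1.81, and none passed. Within BG5 they were at -0.025, -0.16, 0.041, 0.32, -0.55 and 0.081. Where the CCA leaders lie in the spread of all sequences was not tested. The difference between the CCA leaders and the 15-nt leaders was not tested. With DESeq2 in place of edgeR, no leader passed, and the adjusted p of the 6 that edgeR called was 0.518 to 0.957, with log2 changes of 0.97 to 2.42. The call of F7 was lost without E14 mPGCLC replicate 1 (edgeR adjusted p = 0.280), and that of F3 when only the 8 libraries compared were fitted (0.375).

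Within the single lines fewer leaders passed. In E14 it was F1 alone, with 7145 ± 417 RPM in mPGCLC and 2914 ± 2.79 RPM in non-PGCLC (SD, n = 2; log2 1.73, edgeR adjusted p = 3.32e-05). In BG5 they were F1 (log2 2.11, edgeR adjusted p = 8.03e-08), F12 (3.39, 0.000426), F5 (1.52, 0.0239) and F3 (1.86, 0.0490). When only the libraries of that line were fitted, F1 in E14 did not pass (edgeR adjusted p = 0.284), nor did F1, F12, F5 and F3 in BG5 (0.393, 0.346, 0.393 and 0.471), and DESeq2 called none of them (adjusted p = 0.446 or higher). F3 in BG5 also did not pass with a filter of 10 or more reads in 2 or more libraries (edgeR adjusted p = 0.0923). Without E14 mPGCLC replicate 1 or 2 or BG5 mPGCLC replicate 1, F5 within BG5 did not pass (edgeR adjusted p = 0.0502, 0.0628 and 0.147). Without BG5 non-PGCLC replicate 1 or 2 or either SGET library, none of which is compared within E14, F2, F3, F4, F5, F6, F7, F10, F11 and F12 also passed within E14. F3 passed there without any 1 of the 10 libraries other than E14 mPGCLC replicate 2, F10 also without BG5 mPGCLC replicate 1 or 2, and F2, F7 and F11 also without BG5 mPGCLC replicate 2. Within BG5, F7 and F10 passed without either SGET library. Without BG5 non-PGCLC replicate 1, which is itself compared there, F2, F7 and F10 passed, with log2 changes of 1.20, 1.31 and 1.96 in place of -0.025, 1.15 and 1.42. Whether these changes differ between E14 and BG5 was not tested for single sequences.

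Over all sequences of the class, 11 passed between the cell types, all higher in mPGCLC, where 0.137% of sequences of any length passed and 0.0865% were higher. Apart from the 6 leaders they were a pair from family F3, 1 more from F12, a U3 fragment and an 18-nt sequence with no match. Of all 40626 tested, called or not, 383 did not overlap between the groups with mPGCLC higher and 189 with mPGCLC lower. DESeq2 called 1837, of which 1 was among the 11, where it called 7.02% of the sequences of any length to which it gave an adjusted p. Its counts were 1532 within E14 and 1511 within BG5, where it called 6.53% and 8.15%. Within E14 1 passed (0.0394% of all sequences, 0.0288% higher) and within BG5 6 passed (0.106%, 0.0652% higher), all higher in mPGCLC. Leaving out SGET non-PGCLC replicate 1 or 2, which are not compared in this contrast, gave 46 and 57 between the cell types, leaving out BG5 non-PGCLC replicate 1 or 2 gave 21 and 20, and leaving out BG5 mPGCLC replicate 1 gave 18. Within E14 the count was 14 to 20 without 1 of the BG5 non-PGCLC or SGET libraries, 7 without BG5 mPGCLC replicate 2, 4 without BG5 mPGCLC replicate 1, 3 without E14 non-PGCLC replicate 1, and 2 without E14 mPGCLC replicate 1 or E14 non-PGCLC replicate 2. Within BG5 it was 30 and 33 without SGET replicate 1 and 2, and 10 or 11 without E14 non-PGCLC replicate 1 or 2 or BG5 non-PGCLC replicate 2.

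The U3 fragment is shown because it was absent from 4 libraries. It is a 17-nt piece of Rnu3b1 (chr11:87443237-87443451, + strand, GRCm38, within an intron of Tex14), a gene of the U3 snoRNA that acts in rRNA processing and has near-identical copies, 11 annotated genes being matched.
U3 fragment: accacgaggacgagacg
It had 393 and 148 reads in E14 mPGCLC, 915 and 447 in BG5 mPGCLC, and 675 and 474 in SGET non-PGCLC, with 0 reads in all 4 non-PGCLC libraries of E14 and BG5. With a floor of 3 reads over the group this is at least 806-fold higher in mPGCLC (edgeR adjusted p = 0.0190). The gene's other reads did not share this gap. All reads of 15 to 19 nt that matched U3 were at 519, 495, 537 and 233 RPM in mPGCLC, 276, 272, 73.3 and 134 RPM in non-PGCLC of the same lines, and 604 and 730 RPM in SGET, with a fitted log2 change of 1.24 that did not pass (edgeR adjusted p = 0.0811).

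The unmatched 18-nt sequence, which is not printed, was at 388, 335, 822 and 344 RPM in mPGCLC and 90.0, 149, 60.3 and 81.5 RPM in non-PGCLC (log2 2.54, edgeR adjusted p = 0.0493). Whether it came from mouse RNA or from that of another organism was not tested, so its values cannot be read as those of a mouse RNA. The further member of F12, 16 nt long, was at 779, 1107, 831 and 535 RPM against 268, 213.6, 142 and 264 RPM (log2 2.10, edgeR adjusted p = 0.00564). Neither overlapped between the groups of E14 and BG5, but in SGET non-PGCLC they were at 394 and 219 RPM and at 579 and 394 RPM, and 1 SGET library lay within the range of mPGCLC for each. Within BG5 the largest rises were an 18-nt sequence with 1519 and 96 reads in mPGCLC and 0 and 2 reads in non-PGCLC (edgeR adjusted p = 0.0163), and a 16-nt member of F3 with 364 and 173 reads against 1 and 0 reads (edgeR adjusted p = 0.000986). The first had 86 and 70 reads in E14 mPGCLC, 141 and 169 in E14 non-PGCLC, and most in SGET non-PGCLC, 3752 and 6568. The second had 4441 and 4447 in E14 mPGCLC, 1351 and 3376 in E14 non-PGCLC, and 472 and 197 in SGET non-PGCLC.

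Reads that matched annotated small RNA genes exactly were next summed by gene, or by arm for miRNAs. Reads of 15 to 19 nt fell on 843 such genes and arms, 337 of which passed the low-count filter and were tested with those of longer reads, 1159 rows in all. Between the cell types 8 of the 337 passed, all higher in mPGCLC, where 6.21% of all rows passed and 3.19% were higher. The median log2 change was 1.57 over the 337, against 0.20 within E14, and 0.51 over all 1159 rows. They were the miRNA arms Mir290a-5p, Mir292-5p and Mir293-5p and the snoRNAs Gm23212, Gm26224, Gm23246, Snora64 and Snord83b. In bulk libraries, fewer cells of a type and less of an RNA in each cell cannot be told apart.

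The miRNA arms are shown by their mature sequences, from RefSeq (GRCm38.p6), with the seed (bases 2 to 8) in capitals, because all 3 carry the same seed. They lie on chromosome 7, + strand, at chr7:3218639-3218660, chr7:3219200-3219221 and chr7:3220356-3220377.
miR-290a-5p: aCUCAAACuaugggggcacuuu
miR-292a-5p: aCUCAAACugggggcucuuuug
miR-293-5p: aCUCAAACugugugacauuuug

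The most abundant short reads of Mir292-5p were nested forms of that arm, printed with what is left of the seed in capitals.
Read 1 of Mir292-5p: aCTCAAACtgggggctctt
Read 2 of Mir292-5p: TCAAACtgggggctctttt
Read 3 of Mir292-5p: CTCAAACtgggggctcttt
The first kept the 5′ end of the mature arm and had a mean of 272 RPM over the 10 libraries. The others began 2 and 1 bases further in and had means of 126 and 64.5 RPM. The bases that these forms lacked were thus missing from either end.

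Mir292-5p was the miRNA arm with the most reads of 15 to 19 nt, holding 21.4% of those on the 239 arms that had any. It was at 1616 and 1140 RPM in E14 mPGCLC, 778 and 273 in BG5 mPGCLC, 753 and 1069 in E14 non-PGCLC, 124 and 38.6 in BG5 non-PGCLC, and 627 and 567 in SGET non-PGCLC. BG5 non-PGCLC was lowest and BG5 mPGCLC replicate 2 was below both E14 non-PGCLC libraries, so the groups overlapped across lines. The fitted log2 change was 1.58 (standard error 0.36, edgeR adjusted p = 0.0283), and within BG5 2.68 (edgeR adjusted p = 0.0138). Its reads of 20 nt or longer were at 112076 and 84369 RPM in E14 mPGCLC, 29631 and 19359 in BG5 mPGCLC, 62900 and 39648 in E14 non-PGCLC, 2883 and 2922 in BG5 non-PGCLC, and 66009 and 70496 in SGET, and BG5 non-PGCLC was lowest there too.

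Short reads of Mir290a-5p were at 81.3, 36.7, 60.5 and 13.8 RPM in the mPGCLC libraries, 15.6 and 14.3 in E14 non-PGCLC, 0 and 0 in BG5 non-PGCLC, and 21.04 and 60.4 in SGET (edgeR adjusted p = 0.0123). Mir293-5p had 502, 481, 607 and 83 short reads in mPGCLC, 389 and 764 in E14 non-PGCLC, 1 and 0 in BG5 non-PGCLC, and 1136 and 196 in SGET (edgeR adjusted p = 0.0361). In both arms the BG5 non-PGCLC libraries were nearly empty and the E14 libraries were not. Within BG5, short reads of Mir290a-5p were at least 276-fold higher in mPGCLC, against a floor of 3 reads over the group. Its reads of 20 nt or longer were at 4258 and 4282 RPM in BG5 mPGCLC and 373 and 678 RPM in BG5 non-PGCLC.

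For the miR-290 cluster as a whole, reads of 15 to 19 nt were at 1871 and 1393 RPM in E14 mPGCLC, 1080 and 354 in BG5 mPGCLC, 973 and 1413 in E14 non-PGCLC, 124 and 45.1 in BG5 non-PGCLC, and 776 and 698 in SGET non-PGCLC. Of its 11 arms tested, 3 passed and all 3 were higher, where 6.21% of all rows passed and 3.19% were higher, with a median log2 change of 3.69. Within E14 the median was -0.0036 and 0 arms passed, and within BG5, where the non-PGCLC libraries held the least of the cluster, 3 passed (5.26% of all rows), so the averaged median is no measure of the change in both lines. Reads of 20 nt or longer, which show how far the labelled cell types carry this pluripotency cluster, were at 156294 to 179547 RPM in E14 mPGCLC, 39678 to 57328 in BG5 mPGCLC, 72861 to 106447 in E14 non-PGCLC, 5480 to 6763 in BG5 non-PGCLC, and 118272 to 130372 in SGET non-PGCLC. The SGET and E14 non-PGCLC libraries therefore held more of it than BG5 mPGCLC. Messenger RNA markers of mPGCLC cannot be read from these libraries.

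Across all miRNA genes, there were 1.08 to 2.64 reads of 15 to 19 nt for each 100 of 20 to 24 nt. Of these short miRNA reads, 30.9% to 44.2% were 19 nt long, whereas 19 nt was the rarest length of the class. They kept the start of the arm's leading longer read in 29.3% to 55.9% of cases and its end in 13.3% to 23.4%. In every library the start was kept more often than the end. A few arms listed as miRNA went the other way, with more short reads than long ones. Mir6240-3p had 346 short reads for each 100 of 20 to 24 nt and held 19.8% of the short miRNA reads, and Mir6236-5p had 887 and held 9.92%.

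Short reads of other miRNA groups varied between the libraries. The miR-302 cluster was at 16.97 and 2.93 RPM in BG5 mPGCLC and at 0 to 0.317 RPM in the other 8 libraries. The let-7 family was at 10.1 to 248 RPM, lowest in E14 non-PGCLC replicate 1 and highest in SGET non-PGCLC replicate 2, and 0 of its 6 arms tested passed. Mir199a, Mir199b and Mir214, which mark mesenchymal cells, were at 360 and 201 RPM in BG5 non-PGCLC, 0 to 6.84 RPM in mPGCLC, 0.270 and 0.388 in E14 non-PGCLC, and 23.3 and 49.1 in SGET. Of their 2 arms tested 0 passed. Their reads of 20 nt or longer were at 17026 and 9841 RPM in BG5 non-PGCLC, 879 and 1010 in E14 non-PGCLC and 6.89 to 137 RPM in mPGCLC, and their part in the low levels of BG5 non-PGCLC described here was not tested. Mir122 of liver, Mir451a and Mir144 of red cells, Mir126a of endothelium, and Mir1a and Mir133a of muscle had 0 reads of 15 to 19 nt in all 10 libraries.

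The snoRNAs that passed are shown by their leading short read. TGATGA, in capitals, is the form of box C found in these reads, and it was chosen for the search after the reads had been seen. It was looked for on the strand of the read only.
Gm23212: ctgcaTGATGAcgaacaaa
Gm26224: atgctaTGATGAagg
Gm23246: cacccTGATGAactgaa
Snord83b: gttctgTGATGAggctct
Snora64: actctctcactctgca
By the annotation, Gm23212 (chr1:161036682-161036741) and Gm26224 (chr1:161035394-161035473) overlap exons of Gas5, a host gene of many box C/D snoRNAs. Gm23246 (chr19:8725594-8725660) overlaps an exon of Snhg1, another host gene. Snord83b (chr15:80078498-80078591) lies in an intron of Rpl3, and Snora64 (chr17:24720772-24720905) overlaps an exon of Rps2, both ribosomal protein genes. Overlap with an annotated exon does not show that a snoRNA is made from a spliced exon. Of the short reads on all snoRNA genes, 24.3% to 43.2% held TGATGA, against 0.280% to 0.525% of all reads of the class, and 35.0% to 62.9% began in the first 5 bases of the gene.

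Gm26224 was absent from 4 libraries. It was at 25.4 and 15.7 RPM in E14 mPGCLC, 38.8 and 15.1 in BG5 mPGCLC, 0 in all 4 non-PGCLC libraries of the same lines, and 13.1 and 21.6 in SGET non-PGCLC. It was the only one of the 8 whose groups did not overlap across the 4 and 4 libraries, at least 343-fold higher in mPGCLC against a floor of 3 reads over the group (edgeR adjusted p = 0.0243). Of all 337 fragments tested, called or not, 12 did not overlap with mPGCLC higher and 0 with mPGCLC lower. The call was lost when any 1 of the 8 libraries other than E14 mPGCLC replicate 2 was left out (edgeR adjusted p = 0.0542 to 0.0884). Its reads of 20 nt or longer were present in all, at 272 to 570 RPM in mPGCLC and 65.1 to 308 RPM in non-PGCLC of these lines.

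The others were set apart by BG5 non-PGCLC. Gm23212 was at 49.3 and 24.9 RPM in BG5 mPGCLC and 0 and 0 in BG5 non-PGCLC, but at 29.97 and 22.5 RPM in E14 mPGCLC and 50.7 and 38.8 in E14 non-PGCLC. Gm23246 was at 63.1 and 14.1 RPM against 0 and 0 in BG5, and at 49.3 and 80.9 against 3.77 and 37.2 RPM in E14. They were at least 285-fold and 287-fold higher in BG5 mPGCLC, against a floor of 3 reads over the group. Their longer reads, of 20 nt or more, were not absent from BG5 non-PGCLC. Those of Gm23212 were at 1080 and 865 RPM in BG5 mPGCLC and 793 and 204 RPM in BG5 non-PGCLC. Those of Gm23246 were at 96.2 and 157 RPM against 43.7 and 132 RPM. Snord83b had 251 and 225 reads in BG5 mPGCLC and 1 and 1 in BG5 non-PGCLC, a ratio of 308 (95% counting interval 84.7 to 2549), and 481 and 200 against 203 and 1305 in E14. Snora64 had 877 and 482 against 18 and 1 in BG5, and 1195 and 869 against 393 and 1152 in E14. The test averages the lines on the log scale, and the ratio of RPM from the reads summed over the 4 and 4 libraries was 1.58 for Gm23212, 4.31 for Gm23246, 0.974 for Snord83b and 2.78 for Snora64. The SGET libraries had 196 to 1008 reads of each of these 4 snoRNAs.

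Within E14 0 of the 337 passed by edgeR, with 8 at an unadjusted p under 0.05, where 0.431% of all 1159 rows passed, and DESeq2 called 15 (8.17% of all rows with an adjusted p). Within BG5 7 passed, all higher in mPGCLC, where 5.26% of all rows passed and 2.67% were higher. They were the same as between the cell types except for Gm26224. When only the BG5 libraries were fitted, all 7 lost their call (edgeR adjusted p = 0.0845 to 0.111), and the 1 fragment that passed was another. The change differed between the lines for 2, Gm23212 and Snord83b, where 2.24% of all rows passed. The count between the cell types fell from 8 to 3 without E14 mPGCLC replicate 1, to 1 without BG5 mPGCLC replicate 1, to 4 without BG5 mPGCLC replicate 2 or E14 non-PGCLC replicate 1, to 2 without E14 non-PGCLC replicate 2 and to 5 without BG5 non-PGCLC replicate 1. Mir290a-5p lost its call without E14 non-PGCLC replicate 2 (edgeR adjusted p = 0.0516), and Gm23246 without BG5 mPGCLC replicate 1 or BG5 non-PGCLC replicate 2 (0.0535 and 0.0508). Mir292-5p lost it without BG5 mPGCLC replicate 1, BG5 non-PGCLC replicate 2 or either E14 non-PGCLC library, and Snora64 without E14 mPGCLC replicate 1 or any 1 of the BG5 mPGCLC and E14 non-PGCLC libraries. Mir293-5p lost it without any 1 of the 8 libraries other than BG5 mPGCLC replicate 2 and BG5 non-PGCLC replicate 1, Gm23212 without any but E14 mPGCLC replicate 2, and Snord83b without any of the 8 (edgeR adjusted p = 0.0502 to 0.223 over these 5). Within BG5, Mir292-5p, Mir293-5p, Gm23246 and Snora64 lost their call without BG5 mPGCLC replicate 1. Mir292-5p and Mir293-5p also lost it without BG5 non-PGCLC replicate 2, and Gm23246 and Snord83b without BG5 non-PGCLC replicate 1 or 2. For the difference between the lines, Gm23212 lost its call without any 1 of the 8 libraries and Snord83b without 7 of them. With DESeq2 the count between the cell types was 50, all 8 included, where it called 19.1% of all rows with an adjusted p. It called 45 within BG5 (23.0% of all rows) and 37 for the difference between the lines (12%).

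Of the snoRNAs as groups, Snord genes were at 344 and 314 RPM in BG5 non-PGCLC and 479 to 1599 RPM in the other 8 libraries, and Snora genes at 52.9 and 21.3 RPM in BG5 non-PGCLC and 108 to 254 RPM elsewhere. Of 52 Snord genes tested 1 passed (median log2 change 0.85), and of 13 Snora genes 1 passed (3.54), both higher in mPGCLC, where 6.21% of all rows passed and 3.19% were higher. Within E14 the medians were 0 and 0.11 and 0 passed. Named Gm genes are not in these 2 lists. The low snoRNA level of BG5 non-PGCLC was also present in reads of 20 nt or longer, at 2601 and 1940 RPM for Snord genes against 3572 to 7613 RPM.

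Fragments of other non-coding RNAs did not pass between the cell types. Mitochondrial tRNAs, of which 13 were tested, were at 71.1 to 330 RPM in mPGCLC and 39.0 to 221 RPM in non-PGCLC of the same lines. The 7SL RNA (Rn7s1 and Rn7s2) was at 98.3 to 419 RPM against 0.212 to 132 RPM, with BG5 non-PGCLC replicate 1 lowest. The Y RNAs, which bind the Ro protein, were at 0 to 39.1 RPM (Rny1) and 0 to 89.3 RPM (Rny3). For Rn7sk the range was 0 to 40.7 RPM, and for mt-Rnr1 and mt-Rnr2, the mitochondrial rRNAs, 29.4 to 224 and 15.7 to 180 RPM. Rmrp, Rpph1 and Vaultrc5 were at 0 in 6 of the 10 libraries each. The largest fragments of the remaining types were Gm22109 (rRNA, 596 to 2002 RPM) and Gm22068 (snRNA, 411 to 791 RPM), and neither passed. The leading mitochondrial tRNA, mt-Tp of proline, was at 0 to 132 RPM. Gm23935, an RNA listed as miRNA without a miRNA name, was at 28.1 to 140.1 RPM. Scarna3a, of the RNAs that guide snRNA modification, was at 31.7 and 74.9 RPM in E14 non-PGCLC, 13.5 and 0 in BG5 non-PGCLC, 0 to 4.72 in mPGCLC and 0 and 0.102 in SGET non-PGCLC. None of these 3 passed (edgeR adjusted p = 0.302, 0.913 and 0.212).

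The 3 non-PGCLC groups were compared with each other last. Of the sequences of the class 15 passed, where 0.190% of sequences of any length passed, and DESeq2 called 0 (0% of all), with 1079 at an unadjusted p under 0.05. Leaders F1, F3, F11 and F12 were among those that differed between the lines (edgeR adjusted p = 2.65e-05, 4.81e-06, 0.0249 and 0.00654). F11 was at 300 and 338 RPM in E14 non-PGCLC, 893 and 704 in BG5 non-PGCLC and 1211 and 1361 in SGET non-PGCLC, with no overlap between the 3 lines. Leaving out SGET non-PGCLC replicate 1 gave 271 sequences in place of 15, leaving out SGET replicate 2 or BG5 non-PGCLC replicate 1 or 2 gave 68, 39 and 42, leaving out BG5 mPGCLC replicate 1 or 2 gave 31 and 32, and leaving out E14 mPGCLC replicate 1 gave 23.

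Among gene fragments 13 of 337 passed between these lines, where 10.6% of all rows passed, and DESeq2 called 28 (27.1% of all rows). They included all 8 that passed between the cell types, which share the E14 and BG5 non-PGCLC libraries with this comparison. Snord14c, which by the annotation overlaps an exon of Hspa8, was at 419 and 655 RPM in E14 non-PGCLC. It was at 36.8 and 36.1 RPM in the BG5 and at 238 and 106 RPM in the SGET libraries (edgeR adjusted p = 0.00993). Gm23663, within an intron of Rptor, was at 46.2 and 40.4 RPM in the E14, at 11.2 and 56.8 RPM in the BG5 and at 0 and 0.102 RPM in the SGET libraries (edgeR adjusted p = 0.0301), and 99.97% of its short reads were of 1 sequence. Mir2137-3p was at 0 to 0.106 RPM in E14 and BG5 non-PGCLC and at 6.60 and 126 RPM in SGET (edgeR adjusted p = 0.0451). The count of 13 fell to 4 without BG5 non-PGCLC replicate 1, to 7 without BG5 non-PGCLC replicate 2 and to 8 without E14 non-PGCLC replicate 2.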

How the data were processed

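Small RNA libraries of 10 samples in 5 groups were analysed from the deposited tables, 1 per sample, in which the authors gave raw read counts per distinct sequence, with no normalization. They had trimmed adapters with cutadapt 3.2, removed the random bases at the read ends without using them as molecular identifiers, kept reads of 15 nt or longer, and mapped them to GRCm38 with STAR 2.5.3a, end to end with up to 2 mismatches (as the labels and methods state). Counts are therefore of PCR reads, and intervals and floors cover counting error only. The members, lists and leading sequences were chosen with earlier results of these data known.

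Reads of 15 to 19 nt were taken from each table, and RPM was computed over all reads of a library. Sequences were compared without mismatches, on both strands, with GENCODE vM21 transcripts (GRCm38) and with the most abundant reads of 20 to 24 nt, ranked by mean RPM. A read that matched several small RNA genes was counted once, for 1 of them. Mature miRNA sequences came from RefSeq (GRCm38.p6).

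Counts were tested with edgeR 4.0.16 (R 4.3.3; quasi-likelihood, TMM, filterByExpr, 5 group means over 10 libraries), separately for sequences and for gene fragments of all lengths, with Benjamini-Hochberg adjustment over each whole table. The cell-type contrast averaged the E14 and BG5 contrasts. Length and 5′-base classes were fitted over 8 libraries with the line as covariate and total-read scaling. Shares were compared by two-sided exact permutation tests. DESeq2 1.42.0, other scalings, filters and windows, a replicate block and leaving out each library were alternatives. When a library was left out, the tested set was kept. Named were the leaders of the 12 most abundant families, the 5 sequences with the largest rises and falls among those that passed without overlap, up to 8 such gene fragments, and the most abundant fragment of each RNA type. The edgeR fits between the cell types were tested on simulated counts with known changes. The other contrasts, the replicate block and DESeq2 were not. Python 3.11.15, numpy 2.4.6, pandas 2.3.3 and scipy 1.17.1 were used. The origin of reads with no match was not analysed here.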

Additional observations from a re-analysis of the deposited data

Results flagged for a closer look

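The share of reads in the length range of 15 to 19 nt moved in opposite directions in the 2 lines, which is why it is listed here. It was lower in both E14 mPGCLC libraries than in both E14 non-PGCLC libraries, with a difference of -9.59 percentage points, and higher in both BG5 mPGCLC libraries than in both BG5 non-PGCLC libraries, by 9.752 percentage points. The difference between the lines was not tested, nor was the part of the size cut made on a gel after PCR.

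The change of 2 snoRNA fragments between the cell types differed between the lines in the fit itself. For Gm23212, of Gas5, the BG5 change minus the E14 change was 12.5 on the log2 scale (edgeR adjusted p = 0.0296), and for Snord83b, of Rpl3, it was 8.785 (edgeR adjusted p = 0.0494). Gm23212 lost this call when any 1 of the 8 libraries was left out (edgeR adjusted p = 0.0542 to 0.179), and Snord83b when any but E14 non-PGCLC replicate 1 was left out (0.114 to 0.303), with scaling by total reads (0.0701) or with only the samples compared (0.0507). Both values rest on BG5 non-PGCLC libraries with 0 or 1 reads and are no measure of size. The reads of Gm23212 in E14 were 248 and 181 in mPGCLC against 376 and 501 in non-PGCLC, and those of Snord83b 481 and 200 against 203 and 1305.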

How the results depend on the processing

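Of the alternatives for the shares, the share of reads in the class differed by -0.49 points with 16 to 19 nt (exact permutation p = 0.914), and the 5′-U share was 0.158 points higher when each distinct sequence was counted once (exact permutation p = 0.800). Leaving out 1 library gave -3.75 to 3.33 points for the share, -0.33 to 1.07 for GC and -0.38 to 1.16 for containment in abundant reads. The share of reads in transcripts kept its direction under all 15 alternatives, at 0.757 to 3.27 points. By the mean of the shares of both lists, replicates shared 17.6% to 24.2% with the minimum of 20 reads. With minima of 10 or 50 reads or 2 RPM this was 16.9% to 24.4% over the 5 groups.

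DESeq2 called 1837 sequences between the cell types (7882 at an unadjusted p under 0.05), 1532 within E14, 1511 within BG5 and 0 between the non-PGCLC lines, and 50, 15, 45 and 28 gene fragments, with 37 that differed in change between the lines. The cause was not tested. With only the samples compared in the fit, 0 sequences passed within E14, within BG5 and between the lines, and 1 gene fragment within BG5, which was none of the 7, 1 for the difference between lines and 1 between the non-PGCLC lines; fewer libraries and rows entered those fits. Scaling by total reads gave 27 sequences between the lines, 5 fragments between the cell types and 1 for the difference between lines. Mir292-5p, Snora64 and Snord83b lost their call between the cell types with that scaling (edgeR adjusted p = 0.0634, 0.0518 and 0.0578). The median log2 change of all sequences was 0.50 with it and 0.69 with TMM between the cell types, and 0 and 0.16 within E14. With 1 library left out, the sequences called ranged from 9 to 57 between the cell types, 1 to 20 within E14, 5 to 33 within BG5 and 15 to 271 between the lines, and the fragments from 1 to 10, 0 to 0, 3 to 9 and 4 to 15, with 0 to 4 for the difference between lines.

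Same-numbered libraries had deviations that correlated at 0.0267 and 0.0696 over sequences in E14 and BG5. With 2 replicates a group and sparse counts, this cannot show whether same-numbered libraries were paired. The main fits used no pairing. With the replicate number as a block, 2 sequences passed within E14 and 33 between the lines, and 3 fragments passed between the cell types, 4 within BG5 and 0 for the difference between lines. Gm26224, Gm23212, Mir290a-5p, Mir293-5p and Snord83b lost their call between the cell types (edgeR adjusted p = 0.161, 0.123, 0.0540, 0.0540 and 0.205). F3 within E14 passed with the block (edgeR adjusted p = 5.89e-05). Over the length and 5′-base classes the deviations correlated at 0.484 in E14 and at -0.398 in BG5, so the 2 lines went opposite ways, and crossing the BG5 numbers in the block, an alternative chosen after seeing the data, left 0 of the 20 classes called.

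Among named sequences not called, F2 within BG5 (-0.02) was at 0.095 with only the samples compared and 0.26 with the replicate block, and DESeq2 gave -0.073 for F6 and -0.093 for F11 within BG5 and -0.063 for F9 within E14. Leaving out 1 library gave -0.64 to 1.20 for F2, -0.52 to 0.40 for F4, -0.55 to 1.17 for F6 and -0.11 to 0.35 for F11 within BG5, and -0.19 to 0.15 for F9 between the cell types. Mir293-5p within E14 was at 0.11 with total reads and at -0.091 to 0.089 with 1 library left out, Snord83b within E14 at -1.48 to 0.48, and Gm26224 for the difference between lines at -0.065 to 0.90.

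Each group had 2 libraries, and 54.2% to 68.8% of the distinct sequences of a library had a single read there. Such a sequence was compared only where its reads in other libraries took it past the low-count filter.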
